A study of Mus musculus with 3 samples.

Results

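Cd274, Pdcd1lg2, Cd80, Cd86, Cd40 and Icosl, surface molecules through which myeloid cells restrain or costimulate T cells, were followed across the CD45+ cells of mouse mammary tumours. The 6 genes were chosen by name and function, though with earlier results of these data known, and all 6 were among the 28692 genes of the files. The tumours came from 2208L, a mouse mammary tumour cell line that was injected into the mammary gland. They were taken at 4 weeks, with diameters of 0.7 to 1 cm. Viable (DAPI-) CD45+ cells were sorted and run as 3 droplet-based single-cell RNA libraries (replicates 1, 2 and 3), which carry the same labels and form 1 group. The labels give no treatment, genotype, strain or age of the host, and they do not say whether the libraries came from separate mice. The p-values below measure how much differences between groups of barcodes varied from library to library, and that spread may be technical. In the class and state tests it was estimated in 1 joint fit over all classes, or all states of a class, with enough barcodes. There is no tumour-free tissue among the samples, so each level below is that of a tumour that had already grown.

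PD-L1 (Cd274) and PD-L2 (Pdcd1lg2) bind PD-1 on T cells and restrain them. CD80 and CD86 bind CD28, which costimulates T cells, and CTLA-4, which restrains them. CD40 receives the CD40 ligand of helper T cells and licenses antigen-presenting cells, and ICOS ligand (Icosl) engages ICOS on activated T cells. Interferon-gamma is known to raise Cd274 through JAK kinases and STAT factors, and maturation of dendritic cells is known to raise Cd80, Cd86 and Cd40. Neutrophils are short-lived granulocytes with little RNA per cell, and in tumours they can take up several transcriptional states.

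The genes lie on 4 chromosomes of the mouse genome (GRCm38, the assembly also called mm10). Cd274 (ENSMUSG00000016496) spans chr19:29367455-29388095 on the plus strand, and Pdcd1lg2 (ENSMUSG00000016498) spans chr19:29410919-29471161 on the same strand, with its start 43464 bp further on. Plgrkt, which encodes a plasminogen receptor, lies on the minus strand at chr19:29348599-29367390, and its 5′ end is 65 bp before the annotated start of Cd274, so the pair is divergent. Cd80 is at chr16:38455561-38496335 and Cd86 at chr16:36603869-36666081 on the minus strand. Cd40 is at chr2:165055627-165072948 and Icosl at chr10:78069302-78083913. RefSeq promoter windows (GRCm38.p6, 250 bases before to 50 bases after the RefSeq start) were found for 4 of the 6 genes, not for Cd40 and Cd86. The 2 from chromosome 19 are shown because the transcripts on either side of them are compared below. In the Cd274 window (chr19:29367188-29367487, plus strand) capitals mark the 64 bases between the Plgrkt gene and the GENCODE start of Cd274. In the Pdcd1lg2 window (chr19:29410669-29410968, plus strand) capitals mark a match to the NF-kB motif.
Cd274: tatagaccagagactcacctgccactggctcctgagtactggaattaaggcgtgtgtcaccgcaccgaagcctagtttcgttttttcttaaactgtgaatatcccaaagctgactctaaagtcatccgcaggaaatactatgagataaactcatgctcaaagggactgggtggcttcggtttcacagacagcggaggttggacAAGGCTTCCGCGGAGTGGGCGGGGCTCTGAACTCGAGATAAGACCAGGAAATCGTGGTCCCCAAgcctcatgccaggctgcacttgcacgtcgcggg
Pdcd1lg2: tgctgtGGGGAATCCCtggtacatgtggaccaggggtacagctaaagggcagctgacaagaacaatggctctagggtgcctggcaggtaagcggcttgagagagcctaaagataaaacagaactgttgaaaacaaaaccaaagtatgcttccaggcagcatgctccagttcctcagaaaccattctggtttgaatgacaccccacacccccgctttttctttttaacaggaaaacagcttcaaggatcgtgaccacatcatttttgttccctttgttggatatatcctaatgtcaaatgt

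Both strands of the 4 windows were searched for 5 motifs: GAS (TTCNNNGAA), IRF (GAAA and GAAA with NN between them), NF-kB (GGGA and CC with NNNN between them), AP-1 (TGANTCA) and the core of the hypoxia response element, HRE (ACGTG). The NF-kB motif was present in the windows of Pdcd1lg2 (244 bases before the start, minus strand), Cd80 (210 before) and Icosl (71 before), and in 20.7% of all 32851 windows. The AP-1 motif was present in Cd80 (42 before the start) and in 7.81% of windows. The Cd80 window (chr16:38458683-38458982) lies inside the gene as annotated above, so both of its matches are before the RefSeq start but after the GENCODE start. The HRE core was present in Cd274 (39 bases after the start, minus strand) and in 19.6% of windows. GAS (8.30% of windows) and IRF (3.44%) were in none of these 4 windows. These are matches of letters only.

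The files hold 14336 barcodes (4424, 6036 and 3876 in replicates 1 to 3) with 9846404, 15259236 and 9445914 unique molecular identifiers (UMIs, counts of distinct RNA molecules). Between 25 and 37 barcode sequences were shared by any pair of libraries. The 14224 barcodes kept fell into 8 classes, named by fixed marker sets: 6182 neutrophil-like, 3334 T-cell-like, 3141 monocyte/macrophage-like, 510 dendritic-like, 501 NK-cell-like, 270 epithelial-like, 209 plasmacytoid-dendritic-like and 77 B-or-plasma-cell-like. The labels give the cell type as tumour, while the sort was for CD45, and the epithelial-like class held 270 barcodes. The 6 genes and 16 other ligand genes were kept out of the clustering. S100a9, a neutrophil marker, had a UMI in 87.4% of neutrophil-like barcodes and 38.3% of the rest, so neutrophil transcripts were also counted in barcodes of other classes. Csf1r, a macrophage marker, had a UMI in 76.2% of monocyte/macrophage-like barcodes and 4.62% of the rest. After sub-clustering, states whose 10 leading genes held at least 3 markers of another class are called mixed. They were N6 of the neutrophil-like class (23 barcodes, T-cell genes), M2 and M7 of the monocyte/macrophage-like class (described below) and 3 of the dendritic-like class: D1 (39 barcodes, macrophage genes), D4 (15, neutrophil genes) and D8 (13, T-cell genes). Median depth differed by class, from 902 UMIs in neutrophil-like to 4280 in monocyte/macrophage-like and 4473 in dendritic-like barcodes, so levels are given as UMIs per 1000000 UMIs of the same barcodes (CPM, mean ± SD, n = 3 libraries, and per library in the order 1, 2, 3), and shares also after thinning every barcode to 600 UMIs. A CPM is a share of the RNA and does not tell how many molecules a cell holds.

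Neutrophil-like barcodes held most of the transcripts of both PD-1 ligands. They contributed 66.7% of all Cd274 UMIs and 56.3% of all Pdcd1lg2 UMIs. Cd274, the gene of PD-L1, stood at 329, 282 and 258 CPM in neutrophil-like barcodes (289.7 ± 36.1), at 57.7, 54.2 and 55.4 in dendritic-like barcodes (55.8 ± 1.75) and at 35.1, 31.4 and 28.1 in monocyte/macrophage-like barcodes (31.6 ± 3.50). Every neutrophil-like sum was above every sum of the other classes, and the dendritic-like sums did not overlap the monocyte/macrophage-like ones. T-cell-like barcodes stood at 34.4, 33.0 and 32.4 CPM, within the range of the monocyte/macrophage-like ones. B-or-plasma-cell-like barcodes gave 126, 31.2 and 69.8 CPM from 4, 3 and 2 UMIs and overlapped the dendritic-like ones. In the order of levels below those, T-cell-like, monocyte/macrophage-like, plasmacytoid-dendritic-like (33.0, 37.6 and 0), NK-cell-like (19.8 ± 7.91) and epithelial-like barcodes (11.4 ± 6.39) each overlapped their neighbour. After thinning, 12.2% of neutrophil-like barcodes had a Cd274 UMI (17.3% unthinned), against 1.83% of T-cell-like barcodes (4.68% unthinned, median depth 1448 UMIs) and 2.27% of epithelial-like ones (8.76% unthinned, median depth 8807 UMIs). The thinned share in monocyte/macrophage-like barcodes was 1.41% (11.4% unthinned). This is not above those 2 classes, so no difference from them is read from it. Whether the shares of those 2 classes are background was not tested. The thinned share in dendritic-like barcodes was 3.82% (19.3% unthinned).

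Pdcd1lg2, the gene of PD-L2, stood at 96.3, 56.2 and 53.7 CPM in neutrophil-like barcodes (68.7 ± 23.9), at 34.8, 32.9 and 20.8 in dendritic-like barcodes (29.5 ± 7.61) and at 4.15, 7.86 and 6.47 in monocyte/macrophage-like barcodes (6.16 ± 1.88). The 3 classes did not overlap. NK-cell-like barcodes stood at 37.4, 38.4 and 23.8 CPM and overlapped the dendritic-like ones, and T-cell-like ones at 16.7 ± 3.99, above every monocyte/macrophage-like sum. Thinned to 600 UMIs, 3.18% of neutrophil-like barcodes had a Pdcd1lg2 UMI (5.61% unthinned), against 0.799% of T-cell-like barcodes (2.54% unthinned) and 0.407% of monocyte/macrophage-like ones (2.87% unthinned).

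Cd80 was shared by neutrophil-like and dendritic-like barcodes. It stood at 34.7, 17.8 and 30.9 CPM in neutrophil-like (27.8 ± 8.87), 27.6, 13.1 and 30 in dendritic-like (23.6 ± 9.13) and 5.24, 6.88 and 5.34 in monocyte/macrophage-like barcodes (5.82 ± 0.917). The former pair overlapped and both lay above the monocyte/macrophage-like sums, which overlapped the T-cell-like ones (4.90 ± 2.15). Thinned, 1.70% of neutrophil-like and 1.54% of dendritic-like barcodes had a Cd80 UMI (2.65% and 10.7% unthinned), against 0.307% of T-cell-like ones (0.905% unthinned). No Cd80 UMI was found in plasmacytoid-dendritic-like barcodes, whose 783529 UMIs allow up to 3.83 CPM (3 counts over the class).

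Cd86 was highest in the antigen-presenting classes. It stood at 235, 200.4 and 215 CPM in dendritic-like (217 ± 17.6), 86.0, 96.8 and 97.3 in monocyte/macrophage-like (93.4 ± 6.41) and 33.0, 32.7 and 27.2 in plasmacytoid-dendritic-like barcodes (30.9 ± 3.29), with no overlap between the 3. Neutrophil-like barcodes stood at 16.0, 11.5 and 19.9 CPM (15.8 ± 4.18), which overlapped the T-cell-like ones (16.9 ± 2.14). B-or-plasma-cell-like barcodes gave 31.5, 72.8 and 34.9 CPM of Cd86 from 9 UMIs in all. Thinned, 12.7% of dendritic-like and 5.04% of monocyte/macrophage-like barcodes had a Cd86 UMI (57.1% and 32.0% unthinned), against 1.08% of T-cell-like (2.68% unthinned) and 0.366% of epithelial-like barcodes (1.77% unthinned). The neutrophil-like share, 1.02% (1.57% unthinned), was not above the T-cell-like one, so no difference from that class is read from it.

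Cd40 stood at 31.2, 44.4 and 66.9 CPM in dendritic-like (47.5 ± 18.1), 39.5, 46.2 and 34.9 in monocyte/macrophage-like (40.2 ± 5.67) and 3.85, 6.72 and 5.15 in neutrophil-like barcodes (5.24 ± 1.44). The former pair overlapped and lay above the latter. Monocyte/macrophage-like barcodes, being many and deep, held 78.0% of all Cd40 UMIs. Thinned, 3.08% of dendritic-like and 2.74% of monocyte/macrophage-like barcodes had a Cd40 UMI (18.6% and 15.7% unthinned), against 0.331% of neutrophil-like (0.521% unthinned) and 0.0934% of T-cell-like ones (0.495% unthinned). B-or-plasma-cell-like barcodes, where CD40 is a textbook receptor, gave 62.9, 41.6 and 209 CPM from 12 UMIs in all. Icosl was low in the large classes. It stood at 13.2, 17.2 and 18.5 CPM in dendritic-like (16.3 ± 2.75), 10.9, 15.8 and 16.2 in neutrophil-like (14.3 ± 2.95) and 10.3, 11.5 and 13.2 in monocyte/macrophage-like barcodes (11.7 ± 1.49). These 3 classes overlapped, and all lay above the T-cell-like sums (2.02 ± 1.88). B-or-plasma-cell-like barcodes gave 31.5, 20.8 and 69.8 CPM of Icosl from 5 UMIs in all. Thinned shares of Icosl were 2.16%, 1.11% and 0.682% in the 3 classes (8.29%, 1.45% and 5.84% unthinned), against 0.139% of T-cell-like barcodes (0.356% unthinned).

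**Figure D1:**
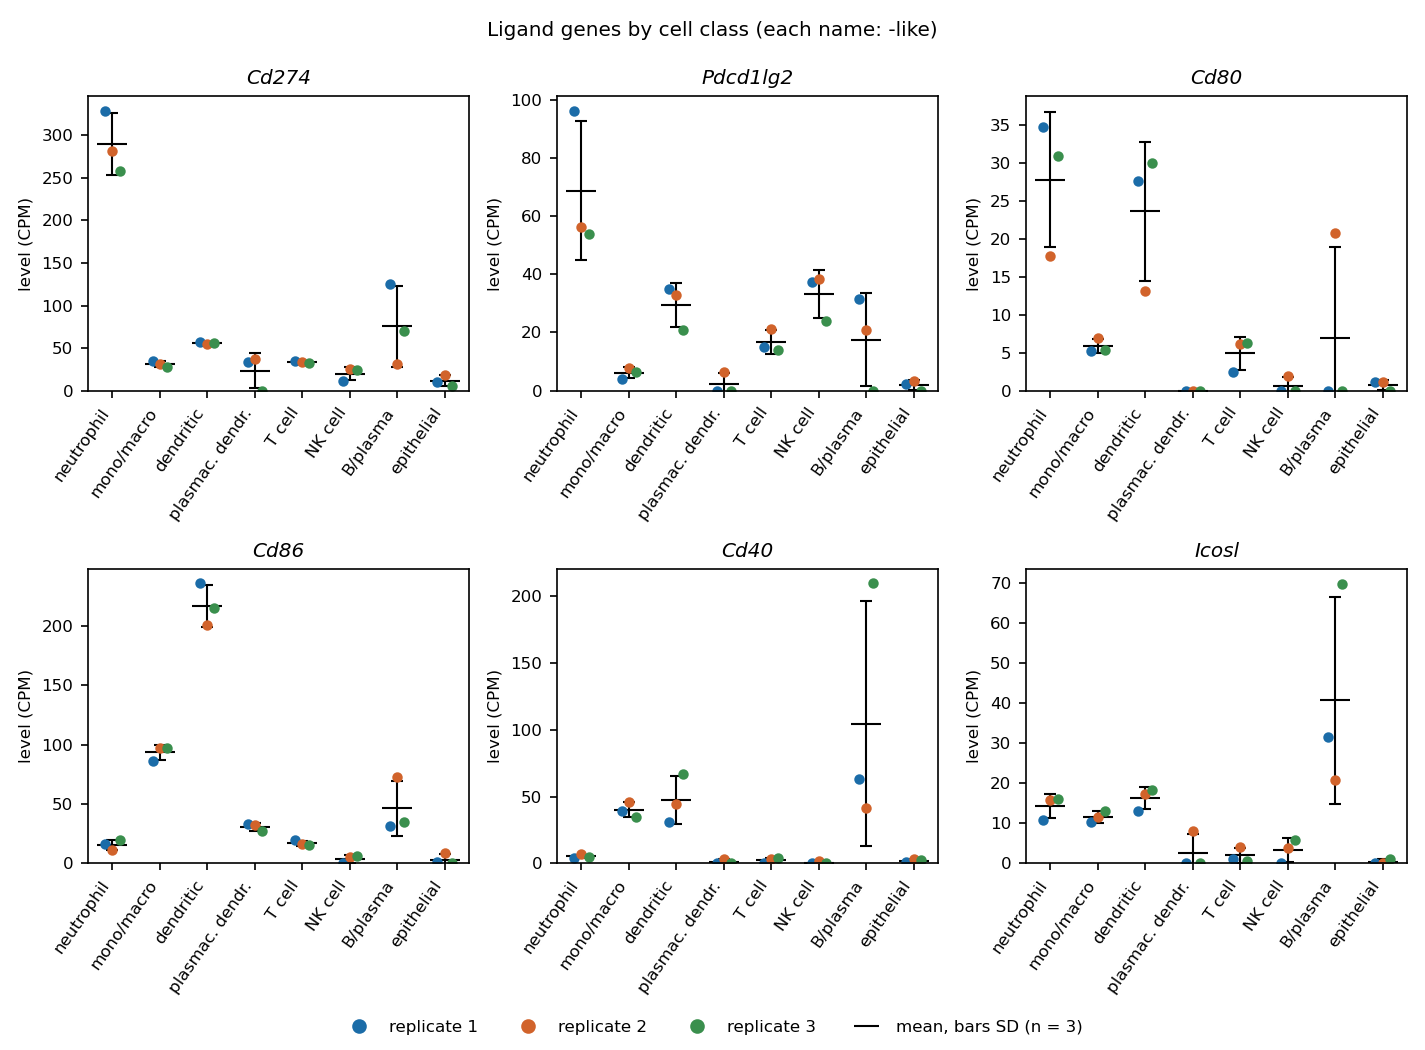
Level of each ligand gene (y axis, CPM, linear from 0) in each of the 8 cell classes (x axis); coloured points are the 3 libraries, the black mark is the mean and the bars the SD (n = 3). Cd274 and Pdcd1lg2 peak in neutrophil-like barcodes (mean 289.7 and 68.7 CPM), Cd86 in dendritic-like ones (217 CPM), and the wide bars of the B-or-plasma-cell-like class rest on 77 barcodes.

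The classes were compared on the summed UMIs of each library with edgeR's quasi-likelihood test, with p-values adjusted (Benjamini-Hochberg) over 9394 genes. Against neutrophil-like barcodes, monocyte/macrophage-like ones differed in all 6 genes, 2 higher and 4 lower, where 66.8% of all genes tested passed at 0.05 (33.4% higher, 33.4% lower). Scaled by library totals in place of TMM, the median of all genes moved by 0.31 and the calls over all genes went from 3141 higher and 3137 lower to 4060 and 2306. Cd274 was lower by a log2 difference of -3.51 (SE 0.12, adjusted p = 3.5e-21), Pdcd1lg2 by -3.74 (SE 0.21, adjusted p = 7.56e-16) and Cd80 by -2.45 (SE 0.25, adjusted p = 1.29e-09). Cd40 was higher by 2.62 (SE 0.25, adjusted p = 9.56e-11) and Cd86 by 2.23 (SE 0.18, adjusted p = 3.35e-12). The median over the 6 was -1.54, beside 0.03 over all genes. The Icosl difference was -0.62 (SE 0.24, adjusted p = 0.0217), in spite of overlapping sums. It did not pass without replicate 1 (-0.62), 2 (-0.43) or 3 (-0.58), with library totals in place of TMM scaling (-0.31), with DESeq2 (-0.50), under the stricter barcode filter (-0.36) or without the mixed states (-0.47).

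Dendritic-like barcodes differed from neutrophil-like ones in 4 of the 6 genes (57.7% of genes tested passed). Cd86 (3.54, SE 0.19, adjusted p = 2.45e-16) and Cd40 (2.83, SE 0.30, adjusted p = 1.2e-09) were higher, and Cd274 (-2.62, SE 0.15, adjusted p = 8.53e-16) and Pdcd1lg2 (-1.39, SE 0.24, adjusted p = 7.24e-06) were lower. Cd80 (-0.53, SE 0.30, adjusted p = 0.127) and Icosl (-0.05, SE 0.31, adjusted p = 0.903) did not pass in edgeR's test. Against monocyte/macrophage-like barcodes, dendritic-like ones were higher in 4 of the 6 and lower in none (30.2% of genes tested passed, 14.2% higher). The differences were 2.34 for Pdcd1lg2 (SE 0.30), 1.92 for Cd80 (SE 0.33), 1.31 for Cd86 (SE 0.14) and 0.89 for Cd274 (SE 0.18). Their adjusted p-values in edgeR ran from 3.94e-09 to 2.24e-04. Cd40 (0.21, SE 0.20) and Icosl (0.57, SE 0.30) did not pass. The median over the 6 was 1.10, beside -0.06 over all genes.

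**Figure D2:**
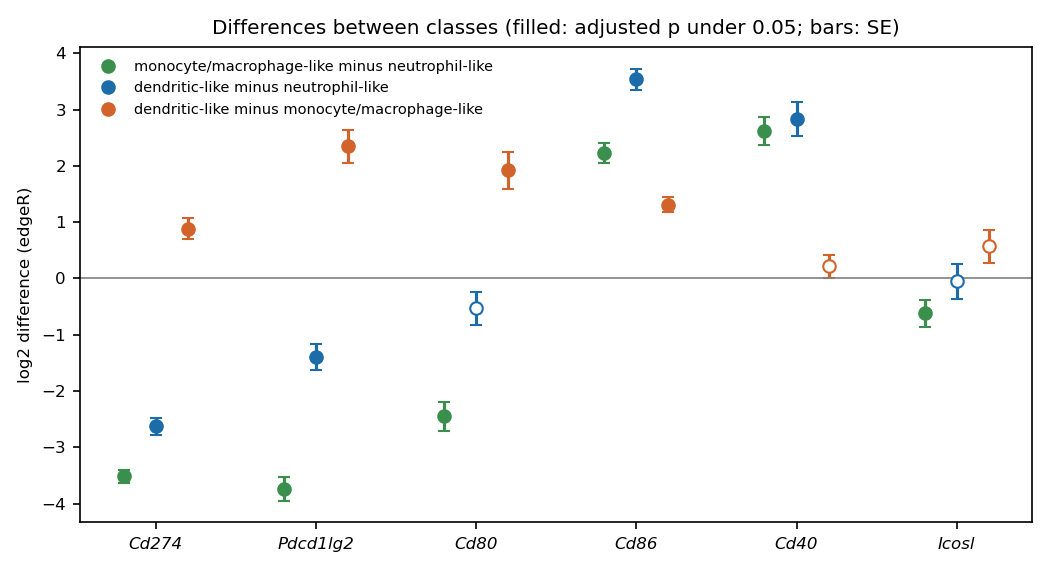
Log2 difference between classes (y axis, edgeR; bars are the SE) for each ligand gene (x axis) in 3 comparisons (colours); filled points passed at an adjusted p of 0.05, open points did not. Cd274, Pdcd1lg2 and Cd80 lie below 0 and Cd40 and Cd86 above 0 in the monocyte/macrophage-like minus neutrophil-like comparison (green), and no dendritic-like minus monocyte/macrophage-like point (orange) lies below 0.

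Plasmacytoid-dendritic-like barcodes, which textbook accounts describe as interferon producers, were lower than dendritic-like ones in all 6 genes (22.5% of genes tested passed, 8.84% higher and 13.7% lower). This class had 24, 160 and 25 barcodes, and several counts were very low. Over all genes 830 were higher and 1287 lower, or 1257 and 735 with library totals (the median of all genes moved by 0.28). Cd86 differed by -3.06 (SE 0.29, adjusted p = 1.33e-09, edgeR), Pdcd1lg2 by -2.91 (SE 0.65, 4 UMIs in the class), Icosl by -1.75 (SE 0.62, adjusted p = 0.0386, 5 UMIs) and Cd274 by -1.11 (SE 0.33, adjusted p = 0.0130). With 0 UMIs, Cd80 was at least 5.47-fold lower. Cd40 had 2 UMIs there, and its pooled level was 17.2 times higher in dendritic-like barcodes (95% counting interval 4.65 to 144). Without replicate 2, which held most of the class, Cd40, Pdcd1lg2 and Icosl had no UMI left there, Icosl no longer passed and Cd274 differed by -2.76. Without the highest doublet scores Pdcd1lg2 differed by -3.60. Without replicate 1 or 3, or with library totals, only 4 of the 6 passed, the exceptions being Icosl and Cd274 (-0.80 with library totals).

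T-cell-like barcodes served as a class in which most of these genes should be low, except that activated T cells can carry some of these ligands. Neutrophil-like barcodes were higher in 5 of the 6 (65.2% of genes tested passed, 34.5% higher): Cd274 by 3.4 (SE 0.13), Icosl by 2.84 (SE 0.37), Cd80 by 2.66 (SE 0.32), Pdcd1lg2 by 2.26 (SE 0.21) and Cd40 by 1.30 (SE 0.45, adjusted p = 0.0135, edgeR). Library totals moved the median of all genes by -0.25 and the calls from 3237 higher and 2884 lower to 2596 and 3585. The Cd40 call was lost without replicate 1 (0.95) or 2 (1.21), and Icosl was 3.90 without replicate 2 and 3.49 without the highest doublet scores. Cd86 did not pass (0.20, SE 0.26, adjusted p = 0.525, edgeR). Monocyte/macrophage-like barcodes (58.1% of genes tested passed, 29.9% higher and 28.3% lower) were higher in Cd40 (3.91), Cd86 (2.42) and Icosl (2.22), lower in Pdcd1lg2 (-1.48), and not different by this test in Cd80 (0.21, adjusted p = 0.641, edgeR) and Cd274 (-0.11, adjusted p = 0.582, edgeR). Without the mixed states Cd274 was lower in them (-0.49, adjusted p = 0.0146, edgeR). T-cell-like barcodes were not sub-clustered, so no mixed state was left out on that side. Their 11 neutrophil markers summed to 1589 to 1901 CPM. The part of this in the difference was not tested. Dendritic-like barcodes (42.6% of genes tested passed, 22.3% higher) were higher in all 6, from 0.78 for Cd274 and 0.86 for Pdcd1lg2 to 4.13 for Cd40. The Pdcd1lg2 call was lost without replicate 1 (0.66), with DESeq2 (0.89) and under the stricter filter (0.56). Without replicate 2, Icosl moved from 2.22 to 3.47 in the former of these comparisons and from 2.79 to 3.96 in the latter, and without the highest doublet scores to 2.88 and 3.39. Cd80 in dendritic-like barcodes was 2.13 (2.81 without replicate 2).

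Within the neutrophil-like class, the PD-1 ligand genes differed between the states of the cells. Sub-clustering without the ligand genes gave 7 states, of which 6 had enough barcodes in each library. N5 (1555 barcodes, led by Cxcl3, Hilpda and Rragd) matched the fixed markers of a Cxcl3 tumour neutrophil, N4 (456, led by Cxcl10, Ifit2 and Gbp5) an interferon neutrophil, N3 (1258, led by Ngp, Camp and Retnlg) a blood neutrophil and N2 (94, led by Hspa1a and Adm) a stressed neutrophil. N0 (1211, led by Aldh2, Dpep2 and Naip2) and N1 (1585, led by Cxcl14, Ltc4s and Siglecf) matched no fixed set and stay unnamed. The states were drawn from other genes of the same barcodes, so a difference between them says where a ligand lies and is no independent evidence of the states.

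Cd274 was highest in the Cxcl3 state N5, at 677, 749 and 643 CPM (690.0 ± 54.1), then in N4 at 550.4, 435 and 342 (443 ± 104) and N2 at 261, 406 and 612 (427 ± 176). It was low in N0 (113, 63.5 and 50.5), N3 (49.5, 92.4 and 53.1) and N1 (41.8, 27.0 and 28.1). The lowest sum of the former 3 states lay above the highest sum of the latter 3, and N5 lay above N4 and N2 in every library. In N5 46.9% of barcodes had a Cd274 UMI (31.0% after thinning). Of its 1555 barcodes, 825 had none, 386 had 1, 194 had 2 and 150 had 3 or more, up to 8, so most barcodes of this state had at most 1 Cd274 UMI at their median depth of 1108. The edgeR test of each state against the mean of the others covered 4653 genes, and only 4 of the 6 ligand genes passed the low-count filter, Cd40 and Icosl being too low. Cd274 was higher in N5 (2.94, SE 0.11, adjusted p = 5.75e-56), N4 (1.85, SE 0.16, adjusted p = 1.31e-19) and N2 (1.25, SE 0.29, adjusted p = 3.43e-04). It was lower in N0 (-1.73), N3 (-1.08) and N1 (-3.24). The N2 call, on 40 UMIs, was lost without replicate 3 (0.53, adjusted p = 0.428, edgeR).

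Pdcd1lg2 had its highest level in N2, at 378, 271 and 196 CPM from 25 UMIs, and stood at 194, 152 and 132 in N5 (159 ± 31.4, 307 UMIs). The lowest N2 sum was just above the highest N5 sum. N4 followed at 59.5, 60.6 and 14.5, N0 at 27.3, 26.7 and 36.7, N3 at 12.8 ± 6.03 and N1 at 9.95 ± 3.81. The differences were 2.73 in N2 (SE 0.40, adjusted p = 1.12e-08) and 2.72 in N5 (SE 0.17, adjusted p = 3.86e-32), and -2.99 in N1, -1.86 in N3 and -0.79 in N0 (adjusted p = 0.0382), all by edgeR. The N0 call was lost with library totals (-0.51), DESeq2 (-0.79), no filter (-0.73) and without replicate 1 (-0.56) or 2 (-0.60).

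The CD28 ligand gene Cd80 had another order. It was highest in N0, at 74.2, 20.1 and 71.2 CPM (55.1 ± 30.4), against 29.2 ± 10.2 in N1, 20.1 ± 7.33 in N3, 19.9 ± 1.85 in N5 and 18.6 ± 10.2 in N4. Replicate 2 of N0 lay within the range of the other states. The N0 difference was 1.28 (SE 0.34, adjusted p = 0.00182, edgeR), fell short without replicate 3 (0.83) and was 2.14 without replicate 1. Icosl was also highest in N0 (23.4, 30.1 and 34.4, against means of 9.68 to 11.7 elsewhere) on 30 UMIs, and did not pass when tested without the filter (1.05, adjusted p = 0.0825, edgeR). Cd86 did not pass in any of the 6 states with TMM scaling. With library totals it was lower in N5 (-0.98, adjusted p = 0.0338, against -0.50 and 0.332, edgeR). Over the 6 states 12 of 24 gene-by-state tests passed, 6 higher and 6 lower. The share of all genes that passed was 26.3% in N0 (3 of 4 ligand genes), 51.6% in N1 (2 of 4), 23.1% in N2 (2 of 4), 35.2% in N3 (2 of 4), 18.5% in N4 (1 of 4) and 45.4% in N5 (2 of 4). Library totals moved the median of all genes by -0.48 to 0.46 in these comparisons. The calls over all genes, higher and lower, then went from 755 and 470 to 1657 and 245 in N0 and from 1388 and 1011 to 2262 and 613 in N1. In N2 they went from 338 and 739 to 556 and 376, in N3 from 1254 and 383 to 674 and 1165, in N4 from 708 and 153 to 520 and 394, and in N5 from 1287 and 826 to 761 and 1926. Of the 12 calls on ligand genes, that of Pdcd1lg2 in N0 was lost and that of Cd86 in N5 was gained, which leaves 12.

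**Figure D3:**
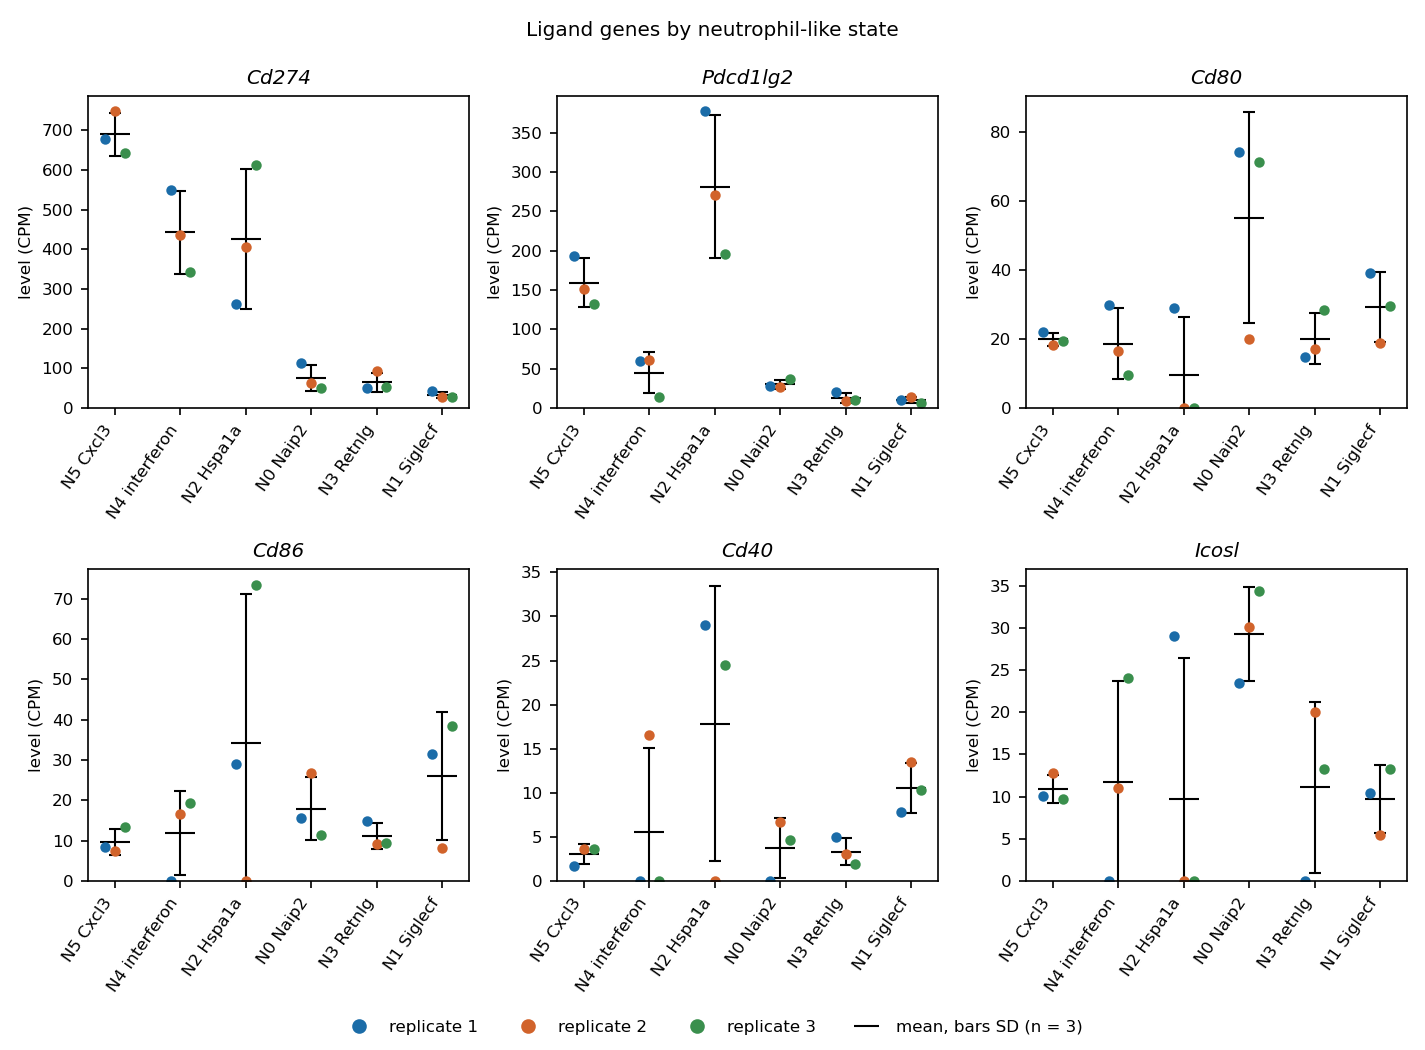
Level of each ligand gene (y axis, CPM, linear from 0) in the 6 tested neutrophil-like states (x axis, named by a leading gene); coloured points are libraries, black marks the mean with SD bars (n = 3). Cd274 separates N5, N4 and N2 (means 690.0, 443 and 427 CPM) from N0, N3 and N1 (75.8 or less), while Cd80 and Icosl have their highest mean in N0.

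On chromosome 19 the neighbours of Cd274 were set beside it. Plgrkt came up by the rule for named genes in the comparison below. The others (Jak2, a kinase of the interferon pathway, Ric1 and A930007I19Rik, a non-coding RNA) were added after their values were seen. Insl6, Rln1 and Ermp1 of the same stretch had 4, 1 and 23 UMIs in neutrophil-like barcodes and are not shown. Plgrkt stood at 313, 309 and 284 CPM in N5 (302 ± 15.8), 238, 60.6 and 116 in N4 and 29.7 ± 3.77 in N1, and A930007I19Rik at 130, 121 and 99.5 in N5 (117 ± 15.5) and 2.73 ± 2.62 in N1. Every N5 sum of either gene was above every sum of the 5 other tested states. Both were higher in N5 by edgeR's test, by 3.15 (SE 0.15, adjusted p = 8.65e-44) and 3.93 (SE 0.24, adjusted p = 8.24e-33). In N2, where Cd274 was also high, Plgrkt stood at 87.1, 0 and 0 CPM from 3 UMIs (-1.62, adjusted p = 0.0921, edgeR, not called). A930007I19Rik stood there at 58.1, 0 and 49.0 CPM from 4 UMIs (1.28, adjusted p = 0.305, edgeR, not called). Jak2 was not higher in N5: it stood at 57.7 ± 8.58 CPM there and 95.3 ± 4.43 in N0, and its N5 difference was 0.20 (adjusted p = 0.457, edgeR). Ric1 stood at 18.9 ± 2.78 CPM in N5 and 15.1 ± 5.35 in N0. A930007I19Rik is annotated on the minus strand and overlaps the end of Pdcd1lg2 by 6412 bp. The strand rule of the counting is not given in the sources used here, so reads of these 2 genes in the overlap may have been mixed. A930007I19Rik was also among the 10 leading genes of N5, which were ranked after the states were drawn. Like Plgrkt, it was free to enter the clustering, so its N5 difference is not independent of the states.

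**Figure D4:**
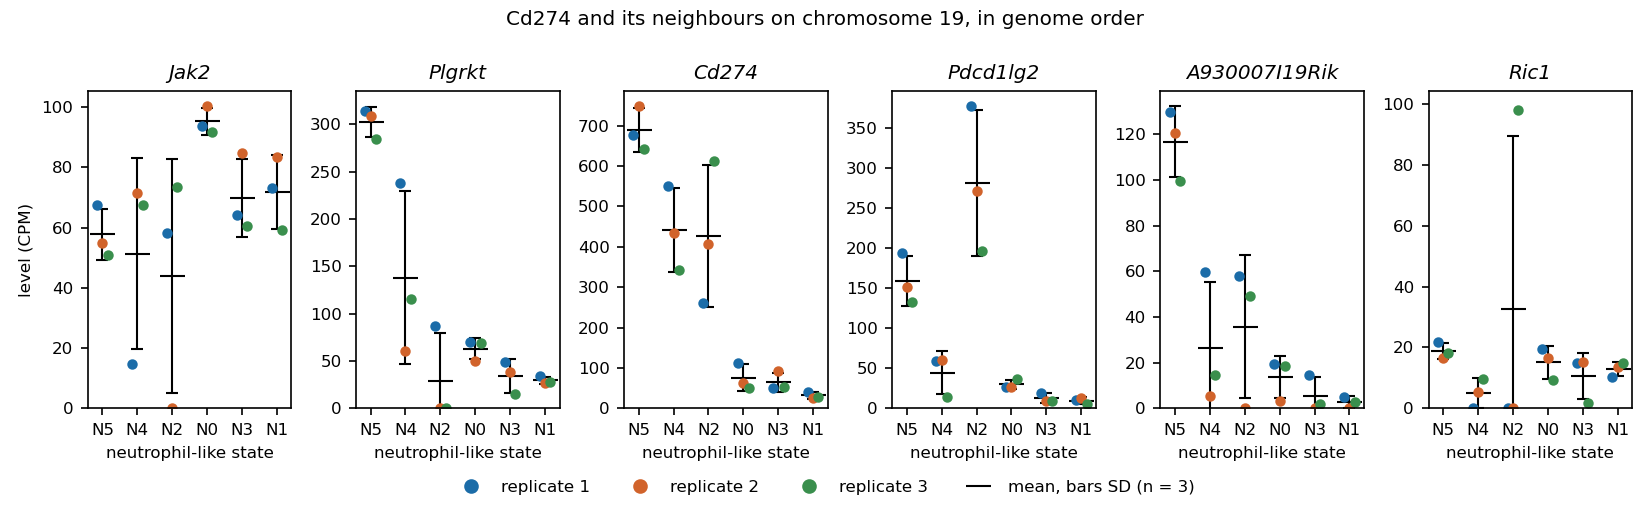
Level (y axis, CPM, linear from 0, a scale per panel) of 6 genes in genome order along chromosome 19 in the 6 tested neutrophil-like states (x axis); points are libraries, black marks the mean with SD bars (n = 3). Plgrkt, Cd274 and A930007I19Rik are highest in N5 (means 302, 690.0 and 117 CPM), and Jak2 is not (57.7 CPM, against 95.3 in N0).

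In the monocyte/macrophage-like class Cd40 and Cd86 were highest in different states, and 3 of its 9 states carried marker transcripts of other classes. M2 (287 barcodes) was led by S100a8, S100a9 and other neutrophil genes. Its 11 neutrophil markers summed to 9378 to 13458 CPM, against 348 to 3613 in the 8 other states and 64263 to 73546 in neutrophil-like barcodes. M7 (261 barcodes, median 6425 UMIs) was led by T-cell genes, and its 10 T-cell markers summed to 1480 to 1796 CPM, against 14.7 to 318 in the other states. M0 (478 barcodes, led by Ccl8, Retnla and Lyve1) matched tissue macrophages and M1 (395, led by Ly6c2 and Plac8) monocytes. M3 (415, Mmp12 and Arg1), M4 (629, Cd72 and Tmem119), M5 (182, Top2a and Birc5, genes of dividing cells), M6 (394, Ass1 and Cxcl9) and M8 (100, Cd209a and Mgl2) stay unnamed. In M8 the 14 dendritic markers summed to 1783 to 2592 CPM, against 93.5 to 727 in the 8 other states and 1671 to 2026 in dendritic-like barcodes. Its 14 monocyte/macrophage markers summed to 6710 to 10392 CPM, against 25375 to 64474 in the other states. M8 had 2 dendritic markers among its leading genes and was kept in the class. With M8 left out as well as the mixed states, the numbers of ligand genes called in the 7 class comparisons were those without the mixed states alone.

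Cd40 was highest in the monocyte-like state M1, at 125, 93.7 and 121 CPM (113 ± 17.1), followed by the tissue-macrophage-like M0 at 69.2, 68.6 and 35.5 (57.7 ± 19.3). M1 lay above all other states in every library. The M1 difference was 1.68 (SE 0.21, adjusted p = 4.12e-08, edgeR) and that of M0 0.73 (SE 0.20, adjusted p = 0.00498, 0.62 and not called without replicate 1). M5 was lower (-0.85, adjusted p = 0.0378, edgeR), a call lost with library totals (-0.76), with DESeq2 (-0.86) and without replicate 1 (-0.93), 2 (-0.86) or 3 (-0.77). Cd86 was highest in M6 (130.2, 118 and 154 CPM) and M4 (119, 119 and 136) and lowest in M0 (63.8, 56.7 and 51.6), with no overlap between M0 and the former pair. Its differences were 0.56 in M6 (SE 0.13, adjusted p = 0.00198), 0.54 in M4 (SE 0.11, adjusted p = 1.27e-04) and -0.73 in M0 (SE 0.14, adjusted p = 3.67e-05), by edgeR. M0 thus had high Cd40 with low Cd86.

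Cd274 within this class was highest in M2, at 118, 87.3 and 111 CPM (105 ± 16.1), above all sums of the 8 other states. Its difference was 2.10 (SE 0.18, adjusted p = 5.26e-12, edgeR) and 1.19 without the highest doublet scores. M2 is the state with the neutrophil markers given above, and their part in this value was not tested. Among the other states the highest was M3, at 42.4, 42.8 and 23.7 CPM (0.53, adjusted p = 0.0578, edgeR, not called). Without the mixed states M3 was higher (0.90, adjusted p = 0.00213, edgeR), as it was without replicate 3 or the highest doublet scores (0.72 in both). M4 was lower (20.3, 18.0 and 10.2 CPM, -0.77, adjusted p = 0.0163, edgeR), a call lost without replicate 2 (-0.82) or 3 (-0.57) and without the mixed states (-0.47). Cd80, Pdcd1lg2 and Icosl were under the low-count filter. Tested without it, Icosl was lower in M0 (2.90 ± 3.72 CPM, -1.93, adjusted p = 3.05e-04), Cd80 higher in M6 (15.9, 14.4 and 19.3 CPM, 1.60, adjusted p = 0.00397) and Pdcd1lg2 higher in M2 (1.52, adjusted p = 0.0114), by edgeR. Without the filter these 3 genes had no other call, and the share of all 15253 genes that passed is not given. In all 8 of 27 tests on the 3 genes above the filter passed, 5 higher and 3 lower. The share of all 6301 genes that passed was 28.6% in M0 (2 of 3), 20.7% in M1 (1 of 3), 11% in M2 (1 of 3), 18.9% in M4 (2 of 3), 22.6% in M5 (1 of 3) and 12% in M6 (1 of 3), and 23.1%, 13.9% and 15.8% in M3, M7 and M8, where none of the 3 passed.

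Among dendritic-like barcodes, 3 states could be tested: D0 (191 barcodes, led by Ifitm1, Cfp and Mgl2, unnamed), D2 (69, matching the Xcr1 and Clec9a markers of DC1, the cross-presenting subset) and D6 (83, matching migratory dendritic cells by Fscn1, Ccr7 and Ccl22). Cd274 stood at 220.2, 174 and 102 CPM in D6 (166 ± 59.3), at 47.6, 35.4 and 86.5 in D2 and at 29.6, 54.7 and 19.6 in D0. Every D6 sum was above every sum of D0 and D2, though replicate 3 of D6 rests on 11 barcodes. The difference was 1.99 in D6 (SE 0.37, adjusted p = 2.21e-04) and -1.55 in D0 (SE 0.39, adjusted p = 0.00427), the latter -2.23 without replicate 2, by edgeR over 1586 genes. Cd86 stood at 226 ± 15.1, 252 ± 38.1 and 180.2 ± 44.5 CPM in D0, D2 and D6 and did not pass in any of them. Of the 2 ligand genes above the filter, 1 passed in D6 (44.8% of genes tested passed), 1 in D0 (40.9%) and none in D2 (30.3%).

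The other 4 genes were below the filter in these states. In D6 Pdcd1lg2 stood at 105, 114 and 0 CPM, Cd80 at 86.1, 20.1 and 61.5, Cd40 at 67.0, 40.2 and 225 and Icosl at 38.3, 33.5 and 20.5. Tested without the filter, Pdcd1lg2 was higher in D6 (1.74, adjusted p = 0.00310, edgeR). Cd80 (1.49, adjusted p = 0.0902), Cd40 (0.90, adjusted p = 0.216) and Icosl (1.20, adjusted p = 0.432) did not pass there, by edgeR. None of the 4 passed in D0 or D2, and the share of all 11897 genes that passed is not given. In D6 21 of 83 barcodes (25.3%) had UMIs of at least 3 of the 6 genes, and in N5 8 of 1555 (0.514%), at median depths of 3484 and 1108 UMIs. These shares were not thinned and are given as a description.

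**Figure D5:**
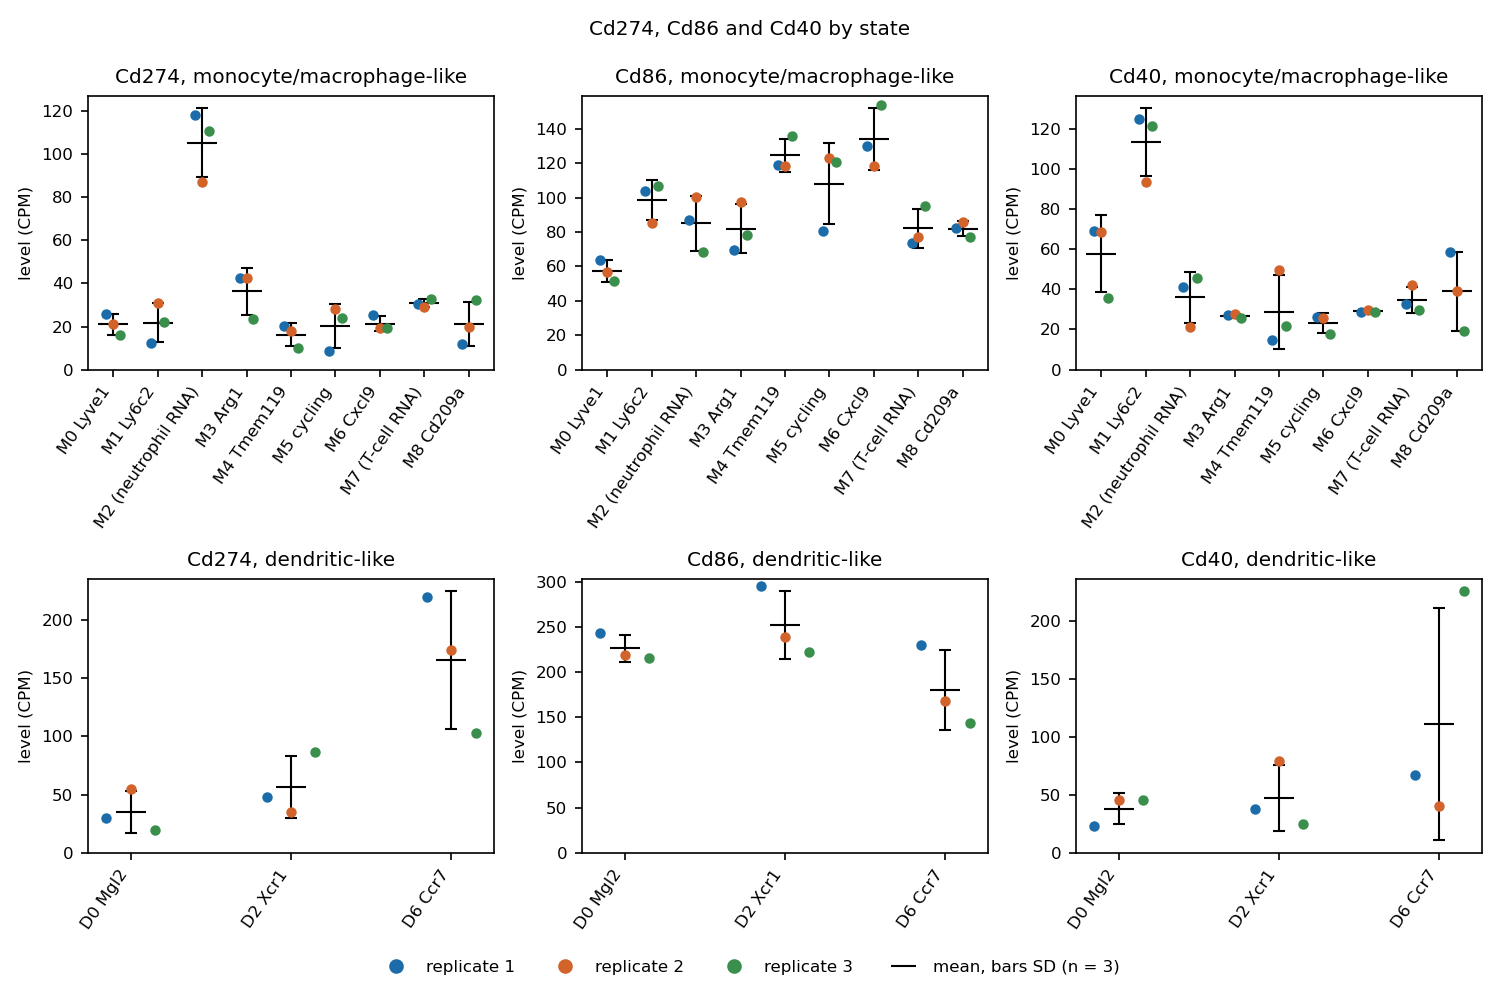
Level (y axis, CPM, linear from 0) of Cd274, Cd86 and Cd40 in the 9 monocyte/macrophage-like states (upper row) and the 3 tested dendritic-like states (lower row); points are libraries, black marks the mean with SD bars (n = 3). Cd40 peaks in M1 (113 CPM), Cd274 in M2 (105 CPM, the state with neutrophil RNA) and D6 (166 CPM), and Cd86 differs least between the dendritic-like states.

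To see which genes go with Cd274 in the same cells, neutrophil-like barcodes were thinned to 600 UMIs and split by whether a Cd274 UMI was left. There were 198, 220 and 238 barcodes with one and 1183, 1598 and 1974 without, after 771 shallower ones were left out. Among those without, 93, 103 and 143 had held a Cd274 UMI before thinning, so the split is of detection and not of expression. Detected barcodes were also deeper before thinning (medians 988, 1005.5 and 1161 UMIs against 888, 865.5 and 1062.5), and 70.3% of them lay in N5, against 21.2% of the others. Pdcd1lg2 was detected with it: it stood at 159.9, 136 and 161 CPM with Cd274 and at 70.4, 39.6 and 41.4 without, with no overlap (2.04, SE 0.28, adjusted p = 2.43e-11, edgeR), where 30.6% of 3895 genes passed. Before thinning, 158 neutrophil-like barcodes had both transcripts, 905 only Cd274 and 179 only Pdcd1lg2, so that Pdcd1lg2 had a UMI in 14.9% of barcodes with Cd274 and 3.50% of those without. Within N5 the shares were closer, 17.9% of 730 and 14.4% of 825. In N4 they were 8.40% of 119 and 1.19% of 337, and in N0 10.3% of 58 and 1.65% of 1153. In N1 they were 6.67% of 45 and 0.584% of 1540, and in N3 3 of 75 and 12 of 1183 barcodes. N2 had the reverse order, 11.1% of 27 and 20.9% of 67. The shares with Cd274 in N0 to N4 rest on 3 to 10 barcodes with both transcripts, and their differences were not tested. The other 4 ligand genes were under the filter, and without it none passed, with values from -0.81 for Cd80 to -0.20 for Icosl.

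Of the 3895 genes, 732 were higher and 460 lower with Cd274 by edgeR with TMM scaling. With library totals the split turned to 459 higher and 1116 lower, since the median of all genes moved by -0.40, and DESeq2 gave 476 and 146. The largest increases by the rule were in Aph1c (2.86, a gamma-secretase subunit), Rragd (2.80, a GTPase of amino-acid sensing), Mreg (2.79), Rab15 (2.71), Fabp5 (2.59, a fatty-acid binding protein), Plgrkt (2.50), Ccdc126 (2.39) and Hilpda (2.33, a hypoxia-induced lipid droplet protein). Fabp5 stood at 749, 727 and 861 CPM with Cd274 and 214, 172 and 136 without. Of the neighbours on chromosome 19, A930007I19Rik was also higher (2.66, adjusted p = 1.56e-13) and Jak2 did not pass (-0.55, adjusted p = 0.280, edgeR). The largest decreases rest on 1 to 3 UMIs with Cd274 and are given as pooled ratios of the level without to the level with it, with 95% counting intervals. These were 22.5 (3.98 to 894) for Was, a regulator of actin in blood cells, 19.6 (3.46 to 779) for Rsl24d1, 17.0 (2.99 to 676) for Nt5e, the ectoenzyme CD73, 8.78 (2.96 to 43.0) for Sharpin and 8.88 (2.99 to 43.4) for Cd244. For Rfc2, Rnaseh2c and Cetn2 they were 9.31, 9.11 and 8.55, with lower bounds of 2.53, 2.47 and 2.32. Thinned to the 50th percentile of depth, the calls of Was, Rsl24d1, Rfc2, Sharpin and Cd244 were lost. Rfc2 was also lost without replicate 3 and Cetn2 without replicate 1, and Nt5e and Cd244 with at least 2 Cd274 UMIs required before thinning.

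With TMM scaling, 18.8% of all 3895 genes tested were higher with Cd274 and 11.8% lower. By list in that setting, 12 of 14 interferon genes tested were higher and none lower, with a median of 1.57, beside -0.04 for all genes. They included Rsad2 (2.20), Ifit3 (2.10), Ifit1 (1.62) and Isg15 (1.30). Of 19 NF-kB target genes, 11 were higher and 1 lower (median 0.63), among them Nfkbia (1.36), Ccrl2 (1.17), Cxcl2 (1.15) and Ccl3 (1.09). Of 10 genes of neutrophil ageing and hypoxia, 7 were higher and 1 lower (median 1.36), among them Hilpda, Ero1l (2.14), Bnip3 (1.49) and Ldha (1.45). Class II antigen presentation gave 3 of 5 higher (median 0.91; H2-Ab1 1.51, H2-Eb1 1.31, H2-Aa 0.91), and the other ligands 2 of 5 (median 0.80; Lgals9 1.5, H2-T23 0.80). Of 12 genes that control Cd274 or its signalling, Cmtm6, whose protein protects PD-L1 from degradation, was the only one to pass, and it was lower (-0.98, adjusted p = 0.0208, edgeR); the call was lost without replicate 1 (-0.84) or 3 (-0.98) and with DESeq2 (-1.02). The H2-Aa call was lost with library totals (0.52), with DESeq2 (0.91) and without replicate 1 (0.75), that of H2-Eb1 with at least 2 Cd274 UMIs required (0.74), and that of H2-T23 with library totals (0.40) and DESeq2 (0.79).

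State and Cd274 detection moved together. When the sums were made within state, with library and state as block, 315 genes could be tested and 45 passed (14.3%). Each block was 1 state of 1 library, so a library gave more than 1 pair of sums. The p-values of this setting measure the spread between those pairs and do not rest on the libraries alone. Hilpda (0.85, adjusted p = 4.03e-04), Ifit1 (0.49, adjusted p = 0.0367), Nfkbia (0.49, adjusted p = 0.00989) and Ccrl2 (0.42, adjusted p = 0.0117) still passed in edgeR, at smaller values. Isg15 (0.34), Ldha (0.25), Cxcl2 (0.17), Bnip3 (0.14) and Ccl3 (0.38) did not. Pdcd1lg2, Plgrkt and A930007I19Rik were too low to be tested there. The 11 neutrophil markers summed to 45606 to 57136 CPM with Cd274 and 61901 to 76237 without, with 1 of 11 higher and 4 lower. The 14 monocyte/macrophage markers summed to 1275 to 1780 and 1350 to 1620. The part of these in the differences was not tested.

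In monocyte/macrophage-like barcodes, thinned to 3000 UMIs, 60, 87 and 30 had a Cd274 UMI and 677, 1080 and 459 had none (748 left out). No other ligand gene differed by the test, where 1.72% of 6176 genes passed (1.62% higher, 0.0972% lower). Cd40 stood at 38.9, 84.3 and 100 CPM with Cd274 and 41.4, 50.9 and 26.1 without (0.78, SE 0.31, adjusted p = 0.359, edgeR), and Cd86 at 61.1, 88.1 and 178 against 90.6, 95.7 and 95.1 (0.06, SE 0.25, adjusted p = 0.978, edgeR). In both genes the groups overlapped. Of all genes, 100 were higher and 6 lower. The largest increases were in the interferon genes Rsad2 (2.76, adjusted p = 5.63e-10), Ifit3 (2.06), Ifit1 (1.87) and Usp18 (1.87), and in Mmp12 (1.89, macrophage elastase), Hcar2 (1.87), Mxd1 (1.81) and Ero1l (1.78), in edgeR. Rsad2 stood at 394, 513 and 456 CPM with Cd274 and 66.5, 81.8 and 49.4 without. The 6 lower were Rsl24d1 (-1.42), Ccr2 (-0.72, the receptor that brings monocytes from blood), Tmem176a (-0.65), H2-Ab1 (-0.35), Lyz2 (-0.32) and Apoe (-0.26). Leaving out 1 library ended each of these calls but that of Tmem176a: any one for Rsl24d1, replicate 2 for Ccr2, replicates 1 or 3 for H2-Ab1 and Apoe, and replicates 2 or 3 for Lyz2. The calls of H2-Ab1, Lyz2 and Apoe also ended without the mixed states. DESeq2 gave 74 genes higher and 2 lower, and the calls of Rsl24d1 (-1.43), H2-Ab1 (-0.34), Lyz2 (-0.31) and Apoe (-0.25) ended with it. Thinned to the 50th percentile of depth, those of Rsl24d1 (-0.65), Lyz2 (-0.23) and Apoe (-0.06) ended. That of Tmem176a ended with at least 2 Cd274 UMIs required before thinning (-0.62, adjusted p = 0.0823) and with library and state as block (-0.43, adjusted p = 0.230, edgeR).

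By list, 9 of 18 interferon genes (median 1.22), 6 of 10 ageing and hypoxia genes (median 1.21; Hilpda 1.72, Slc2a1 1.48, Bnip3 1.20) and 5 of 19 NF-kB genes (median 0.40; Cxcl2 1.24, Ccrl2 0.95, Ccl3 0.79, Nfkbia 0.68) were higher and none lower, beside a median of -0.02 over all genes. Of all genes tested, 1.62% were higher and 0.0972% lower. Of 7 class II genes H2-Ab1 alone passed, and it was lower. The neutrophil-RNA state M2 held 22.6% of barcodes with Cd274 and 8.62% of those without. The 11 neutrophil markers, of which 4 were higher and none lower, summed to 3533 to 4295 CPM with Cd274 and 1311 to 2071 without, so the groups did not overlap. Without M2 and M7, 74 genes passed (64 higher, 10 lower), and Cxcl2 (0.03), Ccl3 (0.07), Mxd1 (0.46), Ccrl2 (0.45), Nfkbia (0.38) and Hcar2 (0.87) were no longer among them. With library and state as block, a library again gave more than 1 pair of sums. In that setting 31 of 1017 passed (3.05%), Rsad2 (2.27), Hilpda (1.34), Isg15 (1.12) and Bnip3 (1.05) among them. These were 30 higher and 1 lower, Ccr2 (-0.66). Cxcl2 (0.51), Ccl3 (0.39), Tmem176a (-0.43), Lyz2 (-0.19), H2-Ab1 (-0.16) and Apoe (-0.12) did not pass there. Without the replicate block Ccr2 (-0.74), H2-Ab1 (-0.31), Lyz2 (-0.31), Apoe (-0.26), Ccl3 (0.83) and Nfkbia (0.66) did not pass. Ccl3 (0.37) and Nfkbia (0.45) did not pass without replicate 1, nor did Nfkbia without replicate 2 (0.61) or with DESeq2 (0.63). Thinning to the 50th percentile of depth gave 177 genes.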

How the data were processed

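The deposited files hold raw UMI counts per gene and barcode for 3 libraries. The authors used Cell Ranger, Seurat and mm10, per the submitters' processing notes, and the matrix headers name software version 3.0.0, with no other settings given in these sources. Both 5′ and 3′ chemistry appear in the labels. Every deposited barcode had at least 500 UMIs. A minimum of 200 genes removed 22 barcodes and a ceiling of 10% mitochondrial UMIs removed 107. Scrublet called 2 doublets, too few to have worked, so doublets remain, and an alternative left out the 560 highest scores.

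Clustering used scanpy 1.11.5 (2000 variable genes, 30 components, 15 neighbours, Leiden resolution 1), and states used 1500 genes, 20 components and resolution 0.5, in both cases without the ligand genes. A cluster took a name from at least 3 fixed markers found in 10% of its barcodes and 2-fold higher than elsewhere (10 CPM added). Classes needed 20 barcodes in every library and states 10.

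UMIs were summed by library and class, state or Cd274 detection. Sums were tested with edgeR 4.0.16 (quasi-likelihood, TMM, low-count filter, library as block, adjusted p under 0.05) in R 4.3.3, with a script tested on simulated data. The block pairs sums of the same library. DESeq2 1.42.0 and other settings were alternatives. Intervals and floors (3 counts, 95%) cover counting error only. The 6 genes and all gene lists were chosen with earlier results of these data known. Beside the 6 genes, the text names up to 4 genes per list with the lowest p and, in the Cd274 comparisons, up to 8 in each direction that passed the test, reached a mean log2 CPM of 5 and kept 1 direction over the libraries (predicted, mitochondrial and ribosomal genes set aside).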

Additional observations from a re-analysis of the deposited data

How the results depend on the processing

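Of the log2 differences of the 6 ligand genes recomputed under the alternatives, 1008 kept their direction and side of the threshold, 41 fell short of it, 8 newly passed and 40 changed sign. The sign changes were all in differences that had not passed. Icosl in dendritic-like minus neutrophil-like barcodes (-0.05) was 0.17 with library totals, 0.033 with DESeq2, 0.30 under the stricter barcode filter, 0.053 without mixed states and 0.039 without these and M8, and ran from -0.022 to 0.057 with each library left out (positive without replicate 2 or 3). Cd40 in dendritic-like minus monocyte/macrophage-like barcodes ran from -0.072 (without replicate 3) to 0.39 with each library left out, and Cd80 in monocyte/macrophage-like minus T-cell-like barcodes from -0.0021 (without replicate 1) to 0.33. Cd86 in neutrophil-like minus T-cell-like barcodes was -0.081 with library totals and ran from -0.20 (without replicate 3) to 0.29. Cd86 in the monocyte/macrophage-like Cd274 comparison was -0.052 without the low-count filter -0.33 with at least 2 Cd274 UMIs required before thinning and -0.035 without mixed states and M8, and ran from -0.24 (without replicate 3) to 0.26. In states, library totals gave -0.062 for Pdcd1lg2 in N4, -0.22 for Cd80 in N5 and 0.069 for Cd86 in D0, which was 0.051 without the low-count filter. Without the highest doublet scores Cd86 in N4 was 0.0085, Cd40 in M2 0.12 and Cd40 in M7 0.069. In M1 Cd86 was -0.016 and Cd274 0.12 without mixed states, or -0.030 and 0.14 without these and M8. With each library left out Cd80 ran from -0.046 to 0.87 in N1, -0.069 to 1.57 in N3 and -0.69 to 0.50 in N4, Cd86 from -0.28 to 0.25 in N4, -0.018 to 0.25 in M1, -0.24 to 0.072 in M2 and -0.29 to 0.0022 in M3. Cd40 ran from -0.53 to 0.28 in M2, -1.001 (called, without replicate 2) to 0.15 in M4 and -0.25 to 0.15 in M8, Cd274 from -0.65 to 0.027 in M1 and -1.002 to 0.10 in D2, and Pdcd1lg2 from -0.47 to 0.58 in N4. The causes of these changes were not tested.

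Of the counts of calls, 132 stayed within 1.5 times and 10 moved. Plasmacytoid-dendritic-like minus dendritic-like calls on ligand genes were 4 with library totals, against 6, and 4 to 5 with each library left out. Calls in dendritic-like states were 3 without the low-count filter, against 2, and 2 to 3 with each library left out. In the neutrophil-like Cd274 comparison 1192 genes passed, against 622 with DESeq2 and 45 with library and state as block (fewer genes could be tested), and 876 to 970 with each library left out. In the monocyte/macrophage-like one 106 passed, against 177 at the 50th percentile of depth, 31 with library and state as block, 64 without mixed states and M8 and 86 to 98 with each library left out.

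Without the replicate block, so without pairing sums of the same library, 1006 and 75 genes passed in these Cd274 comparisons. The numbers of ligand genes called were then 6, 4, 4 and 5 in the first 4 class comparisons described, 5, 4 and 6 against T-cell-like barcodes, and 11, 8 and 2 in the neutrophil-like, monocyte/macrophage-like and dendritic-like states. Of the calls on ligand genes it ended those of Icosl in plasmacytoid-dendritic-like barcodes (-1.64) and of Pdcd1lg2 in N0 (-0.81). Of the other genes named in the Cd274 comparisons it ended the call of H2-Aa (0.91) in neutrophil-like barcodes and 6 in monocyte/macrophage-like ones, given with that comparison.

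Of the thinned shares, 24 moved by more than their SD and 24 did not when barcodes were thinned to 1000 UMIs in place of 600. The alternatives without mixed states, with or without M8, were chosen after seeing the data. With 3 libraries of 1 group there is no comparison between conditions.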

Other observations

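The receptors of these ligands lay mainly in T-cell-like barcodes. Mean levels there were 265 CPM for Icos, 191 for Cd28, 86.3 for Pdcd1 (PD-1), 75.0 for Ctla4 and 27.5 for Cd40lg. All 5 were lower in neutrophil-like, monocyte/macrophage-like and dendritic-like barcodes by edgeR's test. Of all genes tested, 30.7%, 28.3% and 20.3% were lower in these comparisons. The receptor genes, like those of the markers, were free to enter the clustering. Cd28 had 94.6 ± 7.53 CPM in NK-cell-like barcodes.

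Among 16 other ligands of T cells, which were also kept out of the clustering, 9 could be tested between classes. In monocyte/macrophage-like minus neutrophil-like barcodes 4 were higher and 4 lower (66.8% of all genes tested passed), with a median of -0.06, beside 0.03 over all genes. Tnfsf14, the costimulator LIGHT, was lower (-3.00, adjusted p = 1.81e-13), as was H2-T23, the Qa-1 molecule (-1.09, adjusted p = 8.89e-09), and Cd48 (1.73, adjusted p = 7.56e-11) and Pvrl2, a ligand of TIGIT (3.17, adjusted p = 9.16e-06), were higher, in edgeR. In dendritic-like minus monocyte/macrophage-like barcodes 1 was higher and 4 lower (30.2% of all genes tested passed). Vsir, the checkpoint molecule VISTA, stood at 259 ± 27.4 CPM in neutrophil-like, 211 ± 13.8 in monocyte/macrophage-like and 40.1 ± 0.814 in dendritic-like barcodes, and differed by -2.28 between the latter pair (adjusted p = 5.32e-12, edgeR). Lgals9, galectin-9, stood at 174 ± 13.3, 155 ± 17.5 and 52.2 ± 7.07 CPM in the same order. Tnfsf14 had no UMI in dendritic-like barcodes and was at least 5.04-fold lower there than in monocyte/macrophage-like ones (floor of 3 counts over the class).

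Of 17 genes that control these ligands or signal to them, 2 were higher and 13 lower in monocyte/macrophage-like than in neutrophil-like barcodes (median -1.04, beside 0.03; 33.4% of all genes tested were higher and 33.4% lower, and library totals moved the median of all genes by 0.31), among them Jak2 (-2.03), Relb (-1.44), Irf1 (-1.43) and Jak1 (-1.04). In dendritic-like minus monocyte/macrophage-like barcodes 6 were higher and none lower (median 0.32, beside -0.06; 14.2% of all genes tested were higher), among them Jak2 (2.44), Relb (1.88), Map3k14 (1.85) and Nfkb1 (1.28). These genes were free to enter the clustering.

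As a description of likeness, Pearson correlations of log2(CPM + 10) were computed over 24 class-by-library sums, which share libraries and depth within a class. Cd274 was most like Ppp1r15a (0.922), Ccnl1 (0.879) and Pim1 (0.875), Pdcd1lg2 like Kdm6b (0.859) and Lyst (0.849), and Cd80 like Mctp1 (0.866) and Ebi3 (0.842). Cd86 was most like the class II genes H2-Ab1 (0.925) and H2-Eb1 (0.914), Cd40 like H2-DMb2 (0.900) and Cd83 (0.893), and Icosl like Pik3r6 (0.929), Prkab2 (0.887) and Cd40 (0.866). Over 60 state-by-library sums the gene most like Pdcd1lg2, of 7248, was Cd274 (0.797), and that most like Cd274 was Ankrd33b (0.902). Icosl had no gene above 0.562 over these sums.

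Before thinning, 146 monocyte/macrophage-like barcodes had UMIs of both Cd274 and Cd86 and 186 of both Cd86 and Cd40. In dendritic-like barcodes 55 had both Cd274 and Cd86 and 52 both Cd86 and Cd40, and in neutrophil-like barcodes 16 had both Cd274 and Cd86.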
